A study of Homo sapiens with 24 samples.

Results

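BCHE, AADACL3, FMO2 and A2M are 4 of the 26645 gene entries of the count table, taken by their symbols. They were chosen by their RNA levels, which differed strongly, or as on against off, between a pair of breast cancer cell lines in Met+ medium (0 h). The 0 h difference between the lines is therefore given as a description with no test. What could be tested is whether the difference was there in Met-Hcy+ medium, and whether the levels moved between 0.5, 2 and 12 h in it.

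The lines were MDA-MB-468 (MB468), a triple-negative breast cancer line that needs Met to proliferate, and MDA-MB-468res-R8 (MB468res-R8), a Met-independent revertant. MB468res-R8 is 1 clone, obtained from MB468 by prolonged culture in medium with Hcy in place of Met, so a difference between the lines can belong to this clone as much as to Met independence. Both lines grew in dialyzed serum and gave 3 libraries in each of 4 conditions, namely Met+ medium (100 µM Met, called 0 h) and 0.5, 2 or 12 h of Met-Hcy+ medium (370 µM Hcy, no Met). There was no 12 h library in Met+ medium, so the medium and the time in culture cannot be told apart. The 24 libraries held 11713037 to 36402932 gene counts each, and 14741 genes were tested, all 4 among them. A2M passed the low-count filter in both lines. BCHE, AADACL3 and FMO2 passed it only through the line where their level was high. In the other line no library held more than 5 reads of BCHE, 1 of AADACL3 or 6 of FMO2. Tests of their line differences are therefore not independent of being high in 1 line. Levels are normalized counts, that is counts scaled to a common library size.

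Butyrylcholinesterase (BCHE) is a secreted serine esterase, made mostly by the liver, that hydrolyzes acetylcholine and many drug esters. Arylacetamide deacetylase like 3 (AADACL3) belongs to a family of serine hydrolases that act on lipid and drug esters. Flavin-containing monooxygenase 2 (FMO2), best known from lung, uses NADPH and oxygen to oxygenate nitrogen and sulfur atoms of foreign compounds. Alpha-2-macroglobulin (A2M) is a large protease trap of plasma whose internal thioester binds captured proteases, and the receptor LRP1 clears the complexes. Of the breast epithelial markers EPCAM, CDH1, KRT5, KRT8, KRT18, KRT19 and EGFR, 7 of 7 were measured, and their summed level was 189966 to 228153 in the MB468 libraries and 220374 to 268772 in the MB468res-R8 libraries. Of the receptors that define triple-negative disease, PGR reached at most 2.24 normalized counts in any library, while ESR1 had 94.5 to 513 and ERBB2 872 to 2214. Of 5 hepatocyte markers only SERPINA1 passed the filter, TTR was at 0 in every library, ALB reached at most 9.72, and the summed level was 2.39 to 20.0 in MB468 and 11.4 to 27.7 in MB468res-R8. The stromal sum of 6 markers was 335 to 902 in MB468 and 666 to 1672 in MB468res-R8 and was almost all COL1A1, while COL1A2, COL3A1, DCN and LUM had means of at most 1.10 over the libraries. The summed endothelial (13.4 to 105 and 46.2 to 134), adipocyte (9.72 to 28.3 and 6.83 to 33.2) and blood (0 to 3.89 and 0 to 4.53) markers were low in both lines.

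BCHE lies on chromosome 3 at 165772904 to 165837423 (GRCh38.p14, minus strand), AADACL3 on chromosome 1 at 12716110 to 12728760 (plus strand), FMO2 on chromosome 1 at 171185300 to 171212686 (plus strand) and A2M on chromosome 12 at 9067708 to 9116229 (minus strand). The 250 bases before the RefSeq starts of AADACL3 (chr1:12715860-12716109, plus strand) and BCHE (chr3:165837424-165837673, minus strand) are shown because these genes were on in opposite lines, 1 in each. Capitals mark the dinucleotide CG and the AP-1 letters TGACTCA:
AADACL3: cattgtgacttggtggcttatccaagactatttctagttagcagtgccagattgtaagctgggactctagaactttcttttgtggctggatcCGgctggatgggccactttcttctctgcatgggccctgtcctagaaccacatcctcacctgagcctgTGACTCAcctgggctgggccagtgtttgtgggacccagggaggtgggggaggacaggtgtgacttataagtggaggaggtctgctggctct
BCHE: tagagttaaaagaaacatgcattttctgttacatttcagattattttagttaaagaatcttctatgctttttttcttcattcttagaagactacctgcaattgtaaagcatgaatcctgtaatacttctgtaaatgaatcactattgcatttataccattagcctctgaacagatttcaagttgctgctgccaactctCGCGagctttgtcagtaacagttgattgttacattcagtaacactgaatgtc
The RefSeq promoter table held 2 of the 4 genes, and FMO2 and A2M are named only. Both windows were poor in CG. AADACL3 had 1 and BCHE 2, against a median of 11 over 35116 windows of the same length, of which 14.66% and 22.86% had as many or fewer. The letters TATAA, searched on both strands, gave 1 site before AADACL3, which matches on both strands, and 1 before BCHE, and 18.93% of the windows held them. TGACTCA, on either strand, was found 1 time before AADACL3 and not before BCHE, with 4.203% of windows holding it. The amino acid response letters TGATGNAA were found in neither window and are in 3.144% of all. These are matches of letters and say nothing of whether a factor was bound.

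BCHE was read almost only in MB468res-R8. At 0 h its normalized counts were 891, 993 and 836 in the MB468res-R8 libraries and 2.69, 0 and 0 in the MB468 libraries. At 0.5 h they were 997, 1021 and 1116 in MB468res-R8 and 2.97, 4.47 and 5.77 in MB468. The MB468 values rest on 3 reads at 0 h and 11 at 0.5 h over 3 libraries, so the low level is set by single reads. At 2 h the values were 911, 1088 and 958 in MB468res-R8 and 6.71, 0 and 3.76 in MB468. At 12 h they were 520.4, 528 and 539 in MB468res-R8 and 1.22, 2.16 and 2.53 in MB468. The lines did not overlap at any time (60% of all genes tested did not at 0 h, 54.8% at 0.5 h, 58.5% at 2 h and 75.3% at 12 h), and the lowest MB468res-R8 library of all times was far above the highest MB468 library.

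AADACL3 had the opposite pattern and was off in MB468res-R8 at every time. In MB468 its normalized counts were 172, 222 and 176 at 0 h, 238, 218 and 214 at 0.5 h, 156, 139.9 and 154 at 2 h, and 149, 166 and 187 at 12 h. In MB468res-R8 it had 2 reads in all at 0 h, 0 at 0.5 h, 1 at 2 h and 1 at 12 h, each total over 3 libraries. The 0 reads at 0.5 h have an exact Poisson 95% upper limit of 1.32 normalized counts, and the floor of 3 counts over the group is 1.08. A level this low is not told apart from none at this depth.

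FMO2 was also read in MB468 and nearly absent from MB468res-R8, but its MB468 level moved most with time. In MB468 it had normalized counts of 142, 167 and 214 at 0 h, 348, 326 and 416 at 0.5 h, 148, 152 and 160.3 at 2 h, and 66.0, 70.1 and 83.6 at 12 h. In MB468res-R8 it had 2 reads in all at 0 h, 9 at 0.5 h, 10 at 2 h and 1 at 12 h, with no library above 4.84 normalized counts. The MB468 libraries at 12 h were the lowest of that line and still lay above every MB468res-R8 library. In bulk RNA, fewer cells that express a gene and less RNA per cell cannot be told apart, which holds for each level given here.

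A2M differed in degree and not as on against off. In MB468 its normalized counts were 858, 1028 and 1079 at 0 h, 1000.1, 939 and 1108 at 0.5 h, 827, 816 and 838 at 2 h, and 759, 832 and 824 at 12 h. In MB468res-R8 they were 119, 176 and 143 at 0 h, 121, 139 and 122 at 0.5 h, 126, 124 and 92.5 at 2 h, and 321, 303 and 326 at 12 h. The lines did not overlap at any time, as was so for 54.8% to 75.3% of all genes tested. The 12 h libraries of MB468res-R8 stood above all other libraries of that line.

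**Figure D1:**
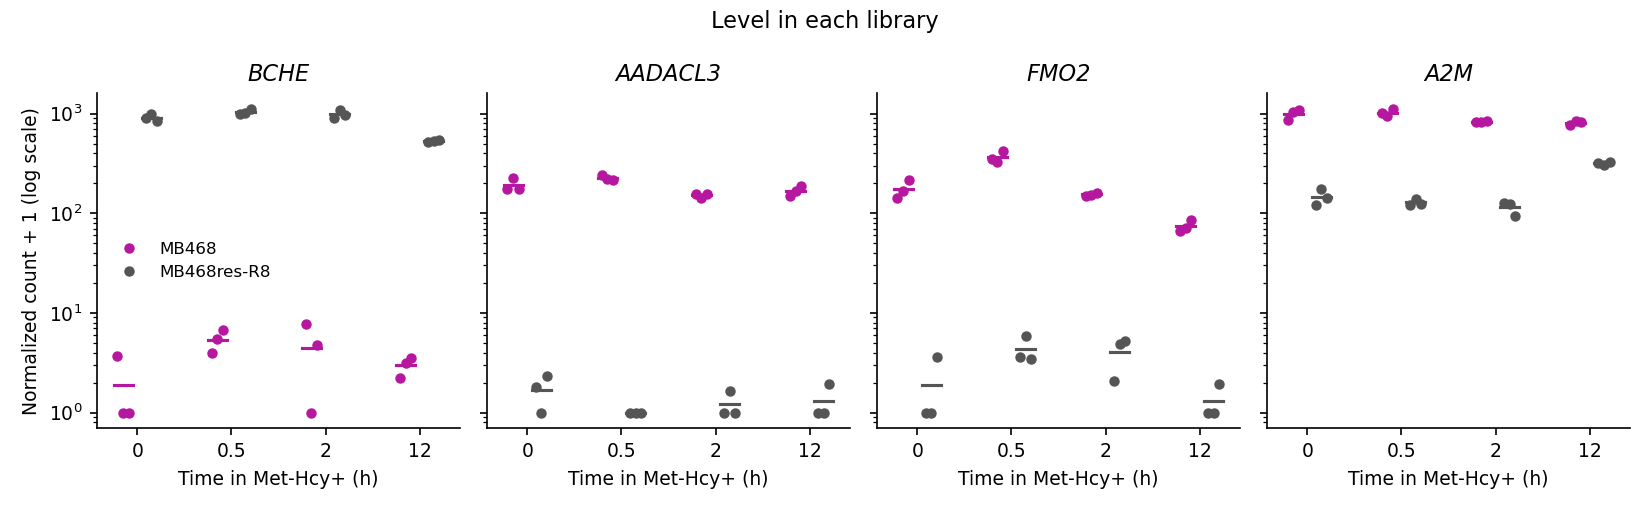
Normalized count plus 1 (log scale) of BCHE, AADACL3, FMO2 and A2M in each of the 24 libraries against the time in Met-Hcy+ medium (h), with 0 h in Met+ medium. Points are libraries and bars are group means (n = 3). MB468 and MB468res-R8 do not overlap for any of the 4 genes at any time, as is so for 54.8% to 75.3% of all genes tested. A2M in MB468res-R8 moves up to 303 to 326 normalized counts at 12 h.

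Per kilobase of exon, the order of the 4 genes within a line can be given. In MB468 at 0.5 h A2M came first with 161 ± 13.6 normalized counts per kilobase (SD, n = 3), followed by FMO2 with 58.6 ± 7.50 and AADACL3 with 55.0 ± 3.21, and the last pair did not differ beyond their spread. At 12 h in MB468 the order was A2M with 127 ± 6.36, AADACL3 with 41.3 ± 4.68, FMO2 with 11.8 ± 1.49 and BCHE with 0.642 ± 0.220. In MB468res-R8 BCHE came first at both times, with 340.1 ± 20.5 at 0.5 h and 172 ± 3.05 at 12 h, and A2M second with 20.2 ± 1.62 and 50.1 ± 1.90. Exon lengths were the merged exons of GENCODE v44, which need not be the annotation that was counted.

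All 4 genes differed between the lines at 0.5, 2 and 12 h, in the direction they had at 0 h. Of all genes tested, 49% were called between the lines at 0.5 h, 56.1% at 2 h and 73.1% at 12 h, so a call alone sets these genes little apart from the rest. Calls with at least a 2-fold difference were 9.14%, 10.5% and 20.3% of the genes at these times, and all 4 genes were among them each time.

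For the genes that were off in 1 line, the fold between the lines is a ratio of summed counts with an exact 95% interval that covers counting error only. BCHE was 933-fold higher in MB468res-R8 at 0 h (319 to 4525), as a description. The ratio was 261-fold (145 to 523) at 0.5 h, 259-fold (131 to 600.4) at 2 h and 274-fold (139 to 636) at 12 h. These later ratios lie within each other's intervals. The Benjamini-Hochberg adjusted p of edgeR's quasi-likelihood test was 7.89e-31 at 0.5 h, 9.99e-30 at 2 h and 4.09e-30 at 12 h. AADACL3 was 282-fold (77.8 to 2337) higher in MB468 at 0 h, again as a description. At 0.5 h it was 211-fold higher against the floor of 3 counts over the MB468res-R8 libraries, with an exact 95% lower limit of 171-fold. The ratio was 483-fold (86.1 to 19139) at 2 h and 511-fold (91.5 to 20222) at 12 h. With at most 2 reads in a group of MB468res-R8, these ratios carry wide intervals and their order over time cannot be read. Its adjusted p from the same edgeR test was 1.06e-22, 4.20e-21 and 1.81e-22 at 0.5, 2 and 12 h.

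FMO2 was 246-fold (67.9 to 2040) higher in MB468 at 0 h as a description, and 110-fold (57.5 to 240.2) at 0.5 h, 49.1-fold (26.3 to 103) at 2 h and 225-fold (40.1 to 8916) at 12 h. The adjusted p from edgeR's test was 8.00e-23, 3.90e-19 and 1.29e-17 at the 3 times in Met-Hcy+ medium. A2M had enough reads in both lines for a fitted difference with a usable error. It was 6.87-fold (6.19 to 7.63) higher in MB468 at 0 h as a description, and its log2 difference, MB468res-R8 minus MB468, was -2.99 ± 0.106 (SE) at 0.5 h, -2.83 ± 0.108 at 2 h and -1.34 ± 0.0905 at 12 h. The adjusted p was 3.17e-24, 3.63e-23 and 3.56e-16 by edgeR. As ratios of summed counts these were 7.90-fold (7.07 to 8.85), 7.06-fold (6.31 to 7.92) and 2.52-fold (2.35 to 2.71), so the 12 h interval lay below both others.

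**Figure D2:**
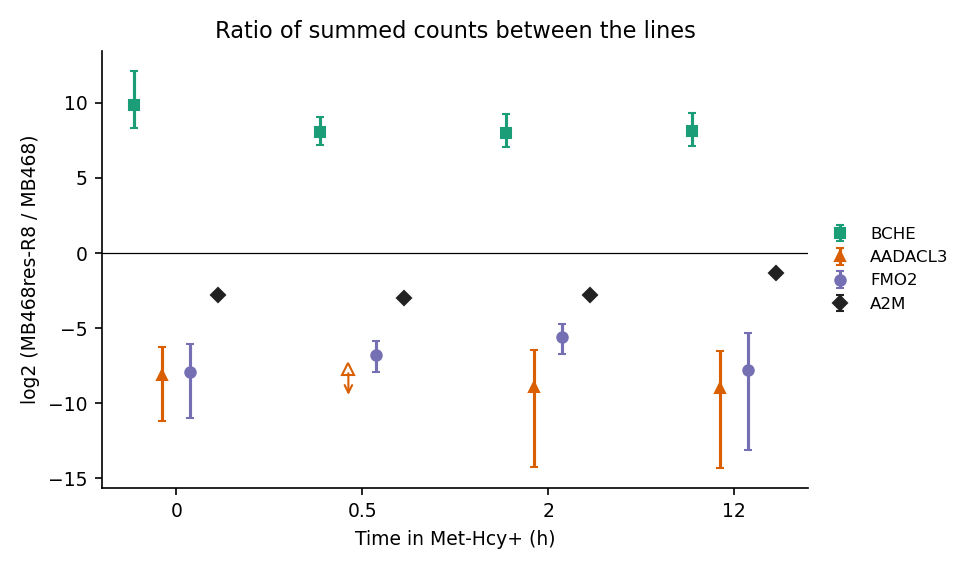
Log2 ratio of summed normalized counts, MB468res-R8 over MB468, for each gene at each time (h), with exact 95% counting intervals. BCHE stays above 0 and AADACL3, FMO2 and A2M below 0 at every time. The open triangle with an arrow is AADACL3 at 0.5 h, drawn at 211-fold, its ratio to the floor of 3 counts. Its exact 95% lower limit is 171-fold. A2M narrows to 2.52-fold at 12 h, and its intervals are smaller than its symbols.

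Genes that are on in 1 line and off in the other were few. With on set at a mean of at least 50 normalized counts and off at a mean of at most 5, limits chosen after the values were seen, 9 of 14741 genes were on only in MB468res-R8 at 0.5 h, 8 at 2 h and 9 at 12 h. On only in MB468 were 24, 29 and 36 genes at these times. The pattern held at all 4 sampled times, 0 h included, for 5 genes on in MB468res-R8, BCHE among them, and for 10 genes on in MB468, AADACL3 and FMO2 among them. A2M met it at no time.

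Whether a level moved in Met-Hcy+ medium was tested against 0.5 h within each line, because the 0 h libraries had chosen the genes. The comparisons of a line at 2 h and at 12 h share their 0.5 h libraries. In MB468, 32.7% of genes were called at 2 h and 70.8% at 12 h, and in MB468res-R8 35.3% and 59.2%. Of the 3 genes higher in MB468 than in MB468res-R8, 3 were called lower at 2 h and 3 at 12 h, beside 16.5% and 35.4% of all genes called lower. In MB468res-R8 none of the 4 was called at 2 h by edgeR or by DESeq2, and the smallest unadjusted p of edgeR among them was 0.263. At 12 h BCHE and FMO2 were called lower there, beside 31% of all genes, and A2M higher, beside 28.2%.

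FMO2 fell most. Its mean in MB468 was 174 ± 36.4 (SD, n = 3) at 0 h, 363 ± 46.5 at 0.5 h, 153 ± 6.44 at 2 h and 73.2 ± 9.24 at 12 h. The 0.5 h mean was thus 2.09 times that of 0 h and the 12 h mean 0.420 times, given as a description, and the 0.5 h libraries (326 to 416) lay above all other MB468 libraries. From 0.5 h the log2 change was -1.24 ± 0.166 (SE) at 2 h, with an adjusted p of 8.93e-08, and -2.30 ± 0.169 at 12 h, with an adjusted p of 1.68e-15 (edgeR). Of all genes, 3.58% moved as far by 2 h and 2.04% by 12 h. In MB468res-R8 the call at 12 h rests on 9 reads at 0.5 h against 1 read at 12 h (adjusted p = 0.00963 from edgeR), and without MB468res-R8 replicate 1 at 12 h the adjusted p was 0.0547.

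AADACL3 fell less in MB468, from 223 ± 13.0 (SD, n = 3) at 0.5 h to 149.9 ± 8.69 at 2 h and 167 ± 19.0 at 12 h. The log2 change was -0.57 ± 0.151 (SE) at 2 h and -0.42 ± 0.143 at 12 h, with adjusted p of 0.00266 and 0.00883 from edgeR. Changes of at least this size were made by 14.4% of genes at 2 h and 53.5% at 12 h. The 12 h call was lost without MB468 replicate 1 at 12 h, where the adjusted p was 0.0658. The 0 h libraries (172 to 222) overlapped those of 0.5 h (214 to 238) and 12 h (149 to 187).

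BCHE in MB468res-R8 was not called at 2 h and was lower at 12 h. Its means were 907 ± 80.0 (SD, n = 3) at 0 h, 1045 ± 63.0 at 0.5 h, 985 ± 91.9 at 2 h and 529 ± 9.36 at 12 h. The 2 h libraries overlapped those of 0 h and 0.5 h, and the log2 change from 0.5 h to 2 h was -0.08 ± 0.0841 (SE) with an adjusted p of 0.521 from edgeR. At 12 h it was -0.98 ± 0.0877 with an adjusted p of 1.57e-12, and 11.4% of genes changed as far. In MB468 the 11, 8 and 8 reads at 0.5, 2 and 12 h gave no call, with edgeR adjusted p of 0.976 at 2 h and 0.158 at 12 h.

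A2M moved in opposite directions in the lines. In MB468 its mean went from 1016 ± 85.7 (SD, n = 3) at 0.5 h to 827 ± 10.8 at 2 h and 805 ± 40.2 at 12 h, and the log2 change of -0.33 ± 0.0829 (SE) at 12 h had an adjusted p of 0.000587 by edgeR. The fall at 2 h, of -0.29 ± 0.0866 with an adjusted p of 0.00842, was not called without MB468 replicate 3 at 0.5 h (adjusted p = 0.0624). Scaled to spike-in totals it was -0.50, when the median of all genes also shifted to -0.22. In MB468res-R8 the mean went from 127 ± 10.2 at 0.5 h to 114 ± 18.6 at 2 h, which was not called (adjusted p = 0.519), and to 317 ± 12.0 at 12 h. That rise was 1.32 ± 0.115 on the log2 scale, with an adjusted p of 1.52e-12 from edgeR, and 6.38% of genes changed as far. The A2M libraries of 12 h and 0.5 h did not overlap in either line, as was so for 73.1% of genes in MB468 and 63.9% in MB468res-R8.

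**Figure D3:**
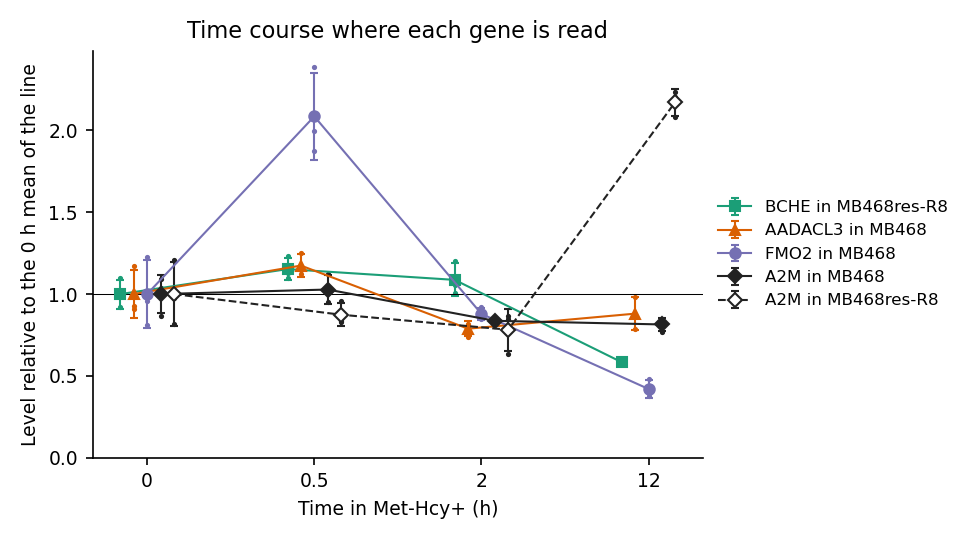
Level of each gene relative to the 0 h mean of the same line (small dots, libraries; symbols, means; bars, SD; n = 3) against time in Met-Hcy+ medium (h), for the lines where the gene is read. FMO2 in MB468 goes to 2.09 times its 0 h mean at 0.5 h and 0.420 times at 12 h, BCHE in MB468res-R8 to 0.584 times at 12 h, and A2M in MB468res-R8 to 2.17 times at 12 h.

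The change of the line difference itself was tested between 0.5 h and the later times. From 0.5 h to 2 h, 8.22% of genes were called and none of the 4 by edgeR or DESeq2, with edgeR adjusted p of 0.333 for FMO2, 0.514 for AADACL3, 0.631 for A2M and 0.998 for BCHE; the smallest unadjusted p was 0.0854. From 0.5 h to 12 h, 56.1% of genes were called, and A2M was the 1 of the 4 called. Its difference moved by 1.65 ± 0.142 (SE) on the log2 scale toward MB468res-R8, with an adjusted p of 1.36e-12, and 4.75% of genes moved as far. For BCHE the change was 0.02 (edgeR adjusted p = 0.944), and the counting intervals of its line ratio at 0.5 and 12 h overlapped. AADACL3 gave 2.28 (adjusted p = 0.281) and FMO2 -0.60 (adjusted p = 0.543), values set by 0 to 9 reads in MB468res-R8, so that a change of either could not be shown at this depth.

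Across the 12 libraries of a line the genes moved partly together. In MB468, Pearson's r of log2 CPM (counts scaled to library size) was 0.789 between FMO2 and A2M, 0.745 between AADACL3 and A2M and 0.646 between AADACL3 and FMO2. In MB468res-R8, BCHE and A2M had an r of -0.908, and the 3 libraries of 12 h held both the lowest BCHE and the highest A2M levels. These points share their time groups, so they are not independent and no p is given.

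The genes most like each member were taken by the same r. Over the 12 MB468res-R8 libraries BCHE was most like AGBL5 (r = 0.996), DOK4 (0.991) and SMO (0.990). Over the 12 MB468 libraries FMO2 was most like GPRC5B (0.985), SLC5A3 (0.985) and TNFSF10 (0.983), and AADACL3 like TMEM139 (0.913), TCEAL1 (0.899) and GLG1 (0.889). A2M in MB468 was most like GEMIN8 (0.893), CORO2A (0.892) and KCNMB4 (0.888). Over all 24 libraries, where the difference between the lines sets most of r, the best were DBNL (0.986) and VCX2 (0.983) for BCHE, and NRN1 (0.991), PRCAT47 (0.990) and SPHK1 (0.989) for AADACL3. They were EPHB1 (0.981), PIK3CG (0.980) and KIT (0.977) for FMO2, and CMTM7 (0.985), MEST (0.982) and SSRP1 (0.976) for A2M. VCX2 has near-identical copies, so its reads could have been split among them.

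Most relatives of the 4 genes were read little, and none of those tested was on in 1 line and off in the other at all times. In the list of 17 cholinesterases, carboxylesterases and acetylcholine genes, 7 were tested besides BCHE. At 12 h 1 was called higher in MB468res-R8 and 5 lower, with a median log2 difference of -1.01 against -0.06 over all genes, where 33.9% were called higher and 39.2% lower. At 0.5 h 1 was higher and 1 lower (24.2% and 24.8% of all genes), and at 2 h 2 and 1 (27.4% and 28.7%). Acetylcholinesterase (ACHE), the other cholinesterase, had 18 reads in 24 libraries and did not pass the filter. The choline acetyltransferase CHAT, the vesicular transporter SLC18A3 and the cholinesterase anchor PRIMA1 were at 0 in all libraries, and the collagen tail COLQ, had 12.8 ± 5.98 (SD, n = 3) in MB468 at 12 h and 6.52 ± 1.72 in MB468res-R8. The COLQ difference passed the test (adjusted p = 0.0401) but not by DESeq2 (adjusted p = 0.0983), nor with edgeR without MB468 replicates 1 or 3 or MB468res-R8 replicates 1 or 2 of 12 h, each left out alone (adjusted p of 0.0790 to 0.248). The nicotinic receptor subunit CHRNA5 was higher in MB468res-R8 at each time and had a log2 difference of 1.02 ± 0.0619 (SE) at 12 h (edgeR adjusted p = 3.76e-18). The subunit CHRNA9 went the other way at 12 h, at 75.1 ± 8.90 (SD, n = 3) in MB468 but 0.678 ± 0.599 in MB468res-R8, and was not called at 0.5 or 2 h. CHRNB4 was lower in MB468res-R8 at each time, by 1.72 on the log2 scale at 12 h, and the muscarinic receptor CHRM3 was called at none. The drug-hydrolyzing carboxylesterase CES2 was higher in MB468res-R8 by 0.19 on the log2 scale at 2 h (edgeR adjusted p = 0.0434) and lower by 0.35 at 12 h. CES3 was lower by 1.06 at 12 h, a call that was lost without MB468 replicate 3 at 12 h (adjusted p = 0.0522).

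In the arylacetamide deacetylase list of 6, only the cholesterol ester hydrolase NCEH1 was tested besides AADACL3. It was higher in MB468res-R8, by 0.46 ± 0.0621 (SE) on the log2 scale at 0.5 h, 0.65 ± 0.0603 at 2 h and 0.17 ± 0.0596 at 12 h, all called by edgeR, the last not without MB468 replicate 2 at 12 h (adjusted p = 0.0629). AADAC had 6 reads over the series, AADACL4 had 4 and AADACL2 had 0. Of the 5 flavin monooxygenases, FMO4 and FMO5 were tested besides FMO2. FMO4 was higher in MB468res-R8 at each time, by 0.88 ± 0.196 at 12 h (edgeR adjusted p = 0.00011). FMO5 was called lower at 0.5 h alone, by 0.53 on the log2 scale (edgeR adjusted p = 0.0455). FMO1 had 2 reads over the series.

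In the list of 11 genes of the thioester proteins and the A2M receptor, 7 were tested besides A2M. At 12 h 5 were higher in MB468res-R8 and 1 lower, with a median log2 difference of 0.24, beside the 33.9% and 39.2% of all genes. At 0.5 h 4 were higher and 1 lower, and at 2 h 5 and 1. PZP, the entry next after A2M on chromosome 12, had 3 reads over the series and did not pass the filter. A2ML1, another protease trap, was higher in MB468res-R8 at each time. Its level at 0.5 h was 12.1 ± 3.73 (SD, n = 3) in MB468 but 47.6 ± 8.21 in MB468res-R8. At 12 h these were 10.6 ± 7.92 and 21.7 ± 1.76, where the call was lost without MB468 replicate 1 (adjusted p = 0.162). The surface protein CD109 (0.12 on the log2 scale at 12 h), CPAMD8 (0.38), complement C5 (0.49) and the receptor chaperone LRPAP1 (0.19) were called higher as well. Scaled to spike-in totals, CD109, C5 and LRPAP1 were not called. C5 was also lost without MB468 replicate 2 (adjusted p = 0.115) or MB468res-R8 replicate 2 (0.068) of 12 h, and CD109 without MB468 replicates 1 (0.0974) or 3 (0.109) or MB468res-R8 replicate 2 (0.11), by edgeR. Complement C3 was lower in MB468res-R8, by 1.01 on the log2 scale at 12 h. The A2M receptor LRP1 was called at no time in the 8-group edgeR fit, with 485 ± 6.97 (SD, n = 3) normalized counts in MB468 at 12 h and 572 ± 48.8 in MB468res-R8. Its 12 h difference depended on the processing: it was called higher by DESeq2 (adjusted p = 0.0493), and by edgeR with thinned libraries (0.0499), with no low-count filter (0.000858) and with the 12 h libraries alone (0.000887).

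The genes next to each member on the chromosome were taken as the 5 nearest entries on each side by RefSeq start. Of these 40, 13 were tested, and at 12 h 6 were called higher and 3 lower in MB468res-R8, beside 33.9% and 39.2% of all genes. Next to AADACL3 and to FMO2, 1 gene each had the same direction and nearly the same on and off pattern as the member, while the genes farther out did not.

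C1orf158 starts 30.09 kb after AADACL3 on chromosome 1, at 12746200. It had 245 reads over the 12 MB468 libraries, 10 to 34 in each, and 0 in all 12 MB468res-R8 libraries. Its ratio to the floor of 3 counts over these libraries was 81.1-fold, with no interval. The edgeR adjusted p was 9.68e-09 at 0.5 h, 4.33e-08 at 2 h and 4.60e-09 at 12 h. Within MB468 its r with AADACL3 was 0.0146 over 12 libraries. Counting error is large at 10 to 34 reads a library, so this r cannot show whether they moved together. On the other side of AADACL3, DHRS3 (148.2 kb before) and VPS13D (486.1 kb before) were higher in MB468res-R8 at 12 h, by 0.44 and 0.88 on the log2 scale. AADACL4, which lies between DHRS3 and AADACL3, had 4 reads in the series.

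FMO6P, a pseudogene of the family, starts 47.56 kb before FMO2. Its means in MB468 were 149 ± 4.05 normalized counts (SD, n = 3) at 0 h, 213 ± 19.2 at 0.5 h, 173 ± 16.8 at 2 h and 74.1 ± 15.4 at 12 h. In MB468res-R8 they were 7.46 ± 4.54, 15.3 ± 3.73, 9.45 ± 3.34 and 0.613 ± 0.531. The lines differed by -3.77 ± 0.223 (SE) on the log2 scale at 0.5 h and -4.10 ± 0.240 at 2 h, with edgeR adjusted p of 6.04e-18 and 4.09e-18. At 12 h the fitted difference was -6.59 ± 0.408 (adjusted p = 6.16e-18), a value that rests on 2 reads in MB468res-R8. In that line it fell from 43 reads at 0.5 h to 2 at 12 h (adjusted p = 2.52e-08), and the line difference moved by -2.82 ± 0.666 between these times (edgeR adjusted p = 0.000388). In MB468 it fell by 1.50 on the log2 scale from 0.5 to 12 h (adjusted p = 3.80e-10) and was not called at 2 h (adjusted p = 0.188), where FMO2 was. Over the 12 MB468 libraries FMO2 and FMO6P had an r of 0.901. The highest of both were the 0.5 h libraries and the lowest the 12 h libraries. FMO4, 128.9 kb after FMO2, was higher in MB468res-R8. TOP1P1, a pseudogene 153.6 kb after FMO2, was called higher at 12 h (0.74, adjusted p = 0.0366 by edgeR), but not without MB468 replicates 1 or 2 or MB468res-R8 replicate 2 (adjusted p of 0.0802 to 0.223). PRRC2C was called lower at 0.5 and 2 h and not at 12 h.

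**Figure D4:**
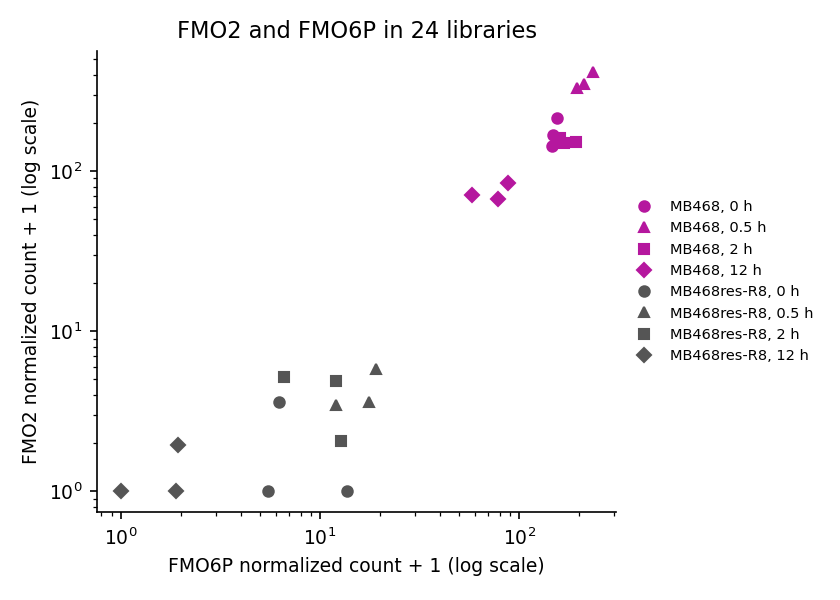
Normalized count plus 1 of FMO2 against that of FMO6P (both log scales) in each of the 24 libraries, by line (colour) and time (symbol). The MB468res-R8 libraries lie low on both axes, with no FMO2 value above 4.84 normalized counts, and among the 12 MB468 libraries (r = 0.901) the 0.5 h libraries are at the top and the 12 h libraries at the bottom.

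Around BCHE the nearest entries held few or no reads. PDCD10, 1910.4 kb away, was the 1 neighbour tested, and it was higher in MB468res-R8 at 12 h by 0.39 ± 0.0447 (SE) on the log2 scale and not called at 0.5 or 2 h. Around A2M 5 were tested. PHC1, KLRG1 and LINC00987 were called at no time. M6PR was called higher at 2 h (edgeR adjusted p = 0.0434) and, by 0.29, at 12 h. LOC642846 was lower by 0.38 at 12 h and called lower at each earlier time, and the 12 h call was lost without MB468res-R8 replicate 3 (edgeR adjusted p = 0.131). Scaled to spike-in totals M6PR was not called at 12 h. None of the 5 differed between the lines at 12 h as far as A2M.

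**Figure D5:**
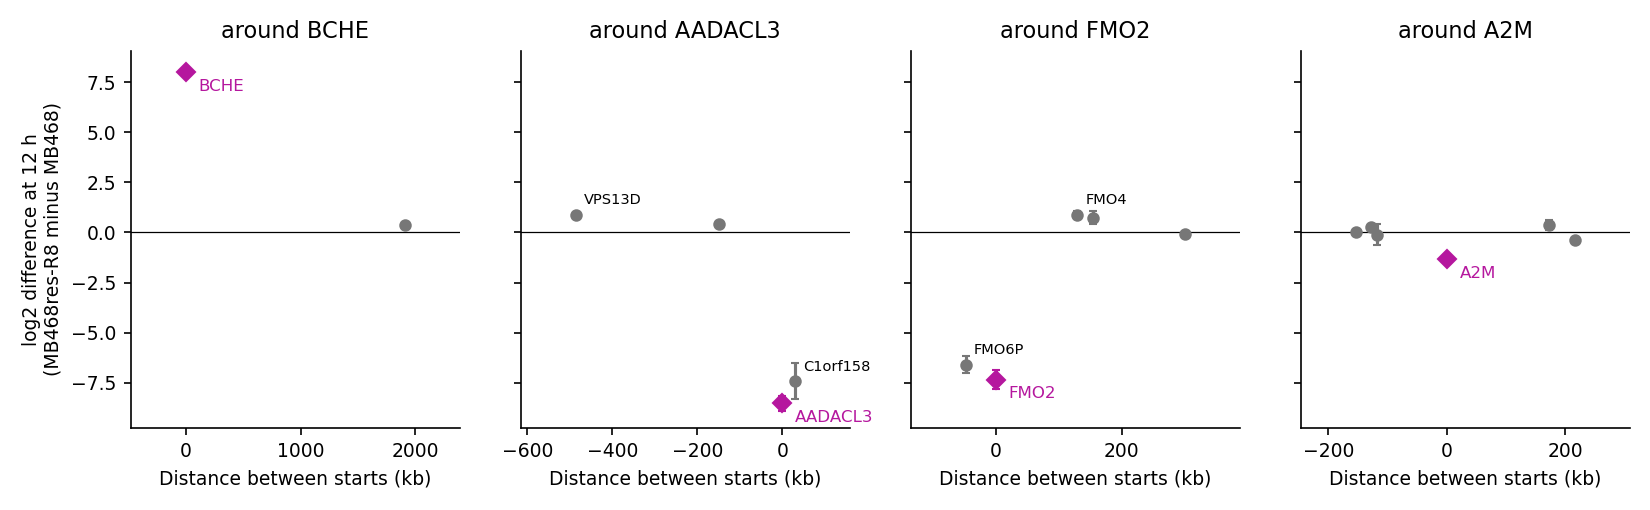
Log2 difference between the lines at 12 h (MB468res-R8 minus MB468; bars, SE) of each tested neighbour (circles) and of the member (diamonds) against the distance between their starts (kb). C1orf158 lies near AADACL3 at the bottom and FMO6P near FMO2, while every other neighbour lies between -0.38 and 0.88.

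Some genes overlap the 4 on the other strand, and the library kit did not mark strand. LINC01322 overlaps BCHE by 64559 bases in GENCODE v44. Its entry had 0 reads, but in RefSeq it ends at 165539437, before the start of BCHE at 165772904. Those 0 reads therefore need not cover the overlap. In GENCODE v44, 2 unnamed noncoding genes overlap FMO2. A2M-AS1 overlaps A2M by 1026 bases and had 70 reads in the MB468 and 90 in the MB468res-R8 libraries. KLRG1 spans A2M in RefSeq. Reads of such partners and of related stretches in FMO2 and FMO6P could have been given to either gene or dropped, which was not tested.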

How the data were processed

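RNA of 24 libraries in 8 groups of 3 was measured. The authors sequenced poly(A) RNA with added ERCC spike-ins as single-end reads, aligned them to GRCh38/hg38 plus the spike-in sequences with HISAT2 2.1.0, and counted reads per gene with featureCounts (Subread 1.5.3). The deposited table holds raw counts for 92 spike-ins and 26645 gene entries and was used as it stands. A deposited table of normalized values and the authors' own table of comparisons (means, log2 fold changes, standard errors, test statistics and p-values) were not used.

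Counts were analysed in R 4.3.3. Spike-ins were left out, 14741 genes passed filterByExpr (at least 10 counts in enough libraries, 15 in total), libraries were scaled by TMM, and edgeR 4.0.16 (glmQLFit, robust, and glmQLFTest) fitted a mean per group over all 24 libraries. Tests were two-sided with Benjamini-Hochberg adjustment over all genes tested, and a call is an adjusted p under 0.05. Normalized counts are counts divided by the effective library size, times the mean effective size. The SE of a log2 difference is its size over the square root of edgeR's F. The floor is 3 counts over a group. Intervals of ratios are exact (Clopper-Pearson, 95%), and the upper limit for 0 reads is exact Poisson (95%). Both cover counting error only, since reads were not tagged by molecule. Correlations used log2 CPM with a prior count of 1.

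The members and lists were chosen with earlier results of these data known. Named genes are the members, the measured genes of their families, the tested neighbours, and for each member the 3 genes most like it over the line where it is higher and over all libraries. Some genes that this rule names are not reported here. Limits for on and off were set after the values were seen. RefSeq positions (GRCh38.p14) matched 25332 of the entries by gene identifier.

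The labels do not say whether libraries of a group came from separate cultures, so p-values measure the spread between these libraries, which may be technical. No pair of replicates agreed within sampling noise (chi-square per gene of at least 2.28). Replicate numbers come from the library names. Over the 6387 genes whose mean log2 CPM reached 5, same-numbered libraries deviated together in MB468 between 12 h and 0.5 h (correlations of 0.175 to 0.411). Numbers were taken to pair libraries where every such correlation was over 0.1, which no other comparison met; the line difference at 0.5 h came nearest (0.0378 to 0.253). No batch is given in the labels. Alternatives were DESeq2 1.42.0 and its size factors, spike-in totals, no filter or a stricter one, fewer libraries in the fit, thinning to the lowest total, a threshold of 0.01, the replicate block, and leaving out each library. Of the relatives and neighbours, only FMO6P and C1orf158 were put through these alternatives at 0.5 and 2 h. Other calls of relatives and neighbours at those times were not checked in this way. The code was tested on simulated data.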

Additional observations from a re-analysis of the deposited data

Results flagged for a closer look

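A2M was the 1 of the 4 genes called in the direct test of a change in the line difference from 0.5 to 12 h, beside 56.1% of all genes. For AADACL3 and FMO2, with 0 to 9 reads in MB468res-R8, a change could not be shown at this depth. The A2M difference between MB468res-R8 and MB468 moved by 1.65 ± 0.142 (SE) on the log2 scale (edgeR adjusted p = 1.36e-12). A2M rose in MB468res-R8 from 121, 139 and 122 to 321, 303 and 326 normalized counts and fell in MB468 from 1000.1, 939 and 1108 to 759, 832 and 824. In both lines the libraries of these times do not overlap, as was so for 73.1% of genes in MB468 and 63.9% in MB468res-R8. The change was 1.59 to 1.74 when each library was left out in turn and 1.64 to 1.68 under the other alternatives. The pseudogene FMO6P beside FMO2 also met this test. Its line difference moved by -2.82 ± 0.666 (SE) on the log2 scale from 0.5 to 12 h (edgeR adjusted p = 0.000388), away from MB468res-R8, where it went from 43 reads to 2. This change was -3.10 to -2.40 when each library was left out and -3.04 to -2.64 under the other alternatives.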

How the results depend on the processing

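The 12 differences between the lines tested at 0.5, 2 and 12 h kept their direction and their call in 171 of 171 alternative fits, with a highest adjusted p of 3.00e-10. A stricter filter of 10 counts in every library gave no value for BCHE, AADACL3 and FMO2, which is built into that filter. With the replicate number as a block no call of the 4 genes changed: A2M moved by 1.65 in the line difference from 0.5 to 12 h and by -0.33 in MB468 at 12 h, where the numbers paired the libraries.

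Values set by single reads moved or changed sign. Thinned to the lowest total, AADACL3 in MB468res-R8 gave 0 at 2 h and 0 at 12 h against 0.5 h and -7.01 for the 0 h line difference, and the change of the BCHE line difference was -0.18 to 12 h and 0.038 to 2 h. Scaled to spike-in totals the last was 0.12. Leaving out each library gave 0 to 2.37 for AADACL3 in MB468res-R8 at 12 h and 0 to 2.19 at 2 h, and -0.26 to 0.35 for the change of the BCHE line difference to 12 h and -0.45 to 0.69 to 2 h. It gave -0.77 to 0.37 for BCHE in MB468 at 2 h, and -0.40 to 0.29 for FMO2 in MB468res-R8 at 2 h. The 0 h descriptions ranged from 9.01 to 12.82 for BCHE, the last without MB468 replicate 1, which holds its only reads, and from -10.45 to -7.03 for FMO2, the first without MB468res-R8 replicate 3, likewise. Among relatives and neighbours that were not called, PHC1 gave -0.0438 with spike-in totals, and leaving out libraries gave -0.00399 to 0.0974 for PHC1, -0.48 to 0.38 for KLRG1 and -0.0761 to 0.28 for CHRM3. The calls named as lost above ranged from -0.34 to -0.22 for A2M in MB468 at 2 h, -0.51 to -0.34 for AADACL3 in MB468 at 12 h and -4.74 to -2.37 for FMO2 in MB468res-R8 at 12 h, which rests on 1 read there. Fitted line differences with 1 read on the low side kept their calls but not their size, at -10.37 to -8.00 for AADACL3 at 12 h, -10.20 to -8.05 at 2 h and -9.18 to -6.81 for FMO2 at 12 h.

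Of the lists at 12 h, calls among the A2M relatives went from 6 to 3 at an adjusted p of 0.01 and to 3 with spike-in totals, and to 7 with DESeq2, no filter or the 12 h libraries alone. NCEH1, the 1 called of its list, was not called in either (0 and 0), and leaving out libraries gave 0 to 1. The esterase and acetylcholine list had 3 of 6 calls with at least 10 counts in every library, since fewer genes were tested, and the flavin monooxygenases 2 without a filter, against 1. Spike-in totals shifted the median of all genes to -0.31 for the 0 h line difference. They cut the calls between the lines to 3995 at 0.5 h and 4888 at 2 h. In MB468res-R8 against 0.5 h the calls were cut to 5408 at 12 h and 2380 at 2 h. For the change of the line difference they were 261 to 2 h (694 at a threshold of 0.01) and 4843 to 12 h. Among the genes called, the share that was higher went from 49.7% to 18.3% in MB468 at 2 h. It went from 49.3% to 35.5% in MB468res-R8 at 2 h and from 42.9% to 60.5% for the change to 2 h. The cause of these moves was not tested. Depth limits the low side of BCHE, AADACL3 and FMO2, where 3 counts over a group are 0.724 to 1.46 normalized counts.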

Other observations

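A few relatives of the 4 genes that were too low to be tested were read mainly in MB468; they were picked after their values were seen and carry no test. The liver carboxylesterase CES1 had means of 1.86, 1.78, 4.14 and 6.56 normalized counts in MB468 at 0, 0.5, 2 and 12 h, and 0, 0, 0 and 0.69 in MB468res-R8. The hormone-sensitive lipase LIPE, of the AADACL3 family, had means of 1.66 to 3.75 in MB468 and 0 to 1.61 in MB468res-R8.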
